A study of Mus musculus with 2 samples.

Results

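The distal end of mouse chromosome 8, chr8:119000001-131736536 in genome build mm9, was examined for 5-hydroxymethylcytosine (5hmC) at single cytosines. The region holds every listed cytosine of chromosome 8 at or beyond 119 Mb, up to the last one listed. These are 174965 of the 13025343 listed sites of the genome (1.343%), and they carry 3051210 of 176006227 reads (1.734%). The stretch was chosen by its measured read density, so the values that make it dense are given as a description and without a test. The DNA came from E14, an established mouse embryonic stem cell line, at passage 12. The labels name 2 libraries, replicates 1 and 2 of a single group. They name no treatment and do not say whether the libraries came from separate cultures. The deposited counts join both libraries in 1 column, so no replicate error could be computed and no p-value is given. Intervals below are exact Clopper-Pearson 95% intervals. They treat sites, dyads or windows as independent, although neighbours are not, so they are likely too narrow. They hold no error between replicates, and the reads were amplified by PCR without molecular identifiers.

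5hmC is made by the TET dioxygenases, which oxidise 5-methylcytosine. It is an intermediate of DNA demethylation and also a lasting mark, and embryonic stem cells, which express TET enzymes, hold a good deal of it in gene bodies and at distal regulatory elements. Unmethylated CG islands at active promoters usually hold little. Most 5hmC sits in CG dinucleotides. A CG reads the same on both strands, so each such pair of cytosines, called a dyad here, can carry the mark on either strand or on both. CH stands for a cytosine followed by A, C or T. For mapping, a glucose is added to 5hmC and the enzyme AbaSI cuts the DNA at a short distance from the modified base. Each read is therefore a cut assigned to a cytosine, or, where cytosines face each other at the cutting distance, possibly to both. A count depends both on 5hmC per DNA copy and on the number of copies of that DNA in the cells, and these cannot be told apart here because the analysis holds no input library.

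The sequences below show what the listed cytosines look like on the DNA. They are the 250 bases before a RefSeq start of 6 protein-coding genes, chosen after their values were seen to show high, middle and low reads per site. A gene can have several such starts, and only a start with enough listed CGs could be located. Whether the start shown is the main start of its gene was not determined. The positions of Acta1, Cbfa2t3 and Sipa1l2 also met a stricter limit on chance fits, and those of the other 3 did not. The letters are RefSeq promoter sequences (GRCm38.p6), written 5′ to 3′ along the gene. Capitals mark listed cytosines: a capital C is a listed cytosine of the strand shown, and a capital G is the partner of a listed cytosine on the opposite strand. The mm9 position of each is where its CG letters fit the listed CG dyads, as described under the processing.

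Il17c, chr8:124945670-124945919, plus strand: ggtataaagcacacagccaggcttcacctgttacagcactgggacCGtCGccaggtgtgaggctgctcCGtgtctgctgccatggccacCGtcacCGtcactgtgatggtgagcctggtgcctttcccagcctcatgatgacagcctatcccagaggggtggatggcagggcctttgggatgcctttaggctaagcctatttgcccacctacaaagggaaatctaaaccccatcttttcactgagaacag

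Sipa1l2, chr8:128016734-128016983, minus strand: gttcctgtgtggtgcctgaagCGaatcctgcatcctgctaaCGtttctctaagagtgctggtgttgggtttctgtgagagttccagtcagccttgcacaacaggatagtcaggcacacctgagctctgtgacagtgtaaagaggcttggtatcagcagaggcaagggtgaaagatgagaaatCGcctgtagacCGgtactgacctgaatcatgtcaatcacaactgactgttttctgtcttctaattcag

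Cbfa2t3, chr8:125223010-125223259, minus strand: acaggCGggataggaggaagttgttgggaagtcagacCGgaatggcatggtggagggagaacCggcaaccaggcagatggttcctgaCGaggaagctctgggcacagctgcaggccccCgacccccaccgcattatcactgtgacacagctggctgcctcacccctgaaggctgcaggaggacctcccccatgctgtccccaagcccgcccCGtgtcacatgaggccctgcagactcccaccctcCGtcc

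Irf8, chr8:123262289-123262538, plus strand: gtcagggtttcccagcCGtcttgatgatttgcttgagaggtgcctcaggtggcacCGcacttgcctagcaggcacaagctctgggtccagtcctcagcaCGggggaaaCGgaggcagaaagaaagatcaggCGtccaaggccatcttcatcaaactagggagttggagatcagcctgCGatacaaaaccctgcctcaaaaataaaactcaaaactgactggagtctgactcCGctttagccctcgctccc

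Acta1, chr8:126418676-126418925, minus strand: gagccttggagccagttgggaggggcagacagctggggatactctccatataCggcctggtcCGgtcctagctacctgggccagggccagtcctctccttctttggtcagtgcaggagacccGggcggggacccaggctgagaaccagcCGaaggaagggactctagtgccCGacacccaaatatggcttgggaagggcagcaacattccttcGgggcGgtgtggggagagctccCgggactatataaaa

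Slc35f3, chr8:128822229-128822478, plus strand: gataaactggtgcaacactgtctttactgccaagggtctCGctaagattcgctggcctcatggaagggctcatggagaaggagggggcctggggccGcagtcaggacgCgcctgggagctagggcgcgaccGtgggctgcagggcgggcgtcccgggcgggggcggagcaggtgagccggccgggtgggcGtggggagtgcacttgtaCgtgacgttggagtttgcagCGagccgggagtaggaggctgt

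Il17c encodes a cytokine of the interleukin 17 family made by epithelial cells. Its 250 bases before the start held 10 listed cytosines and 515 reads, or 51.5 reads per site. The highest counts were 81 and 80 reads on both strands of a dyad 181 and 182 bases before the start, and 80 reads stood 160 bases before it, facing the site at 182 at a distance of 22 bp. Facing sites of this kind mostly have equal counts, as given further on, so the same reads may stand at both. The 2 facing pairs coded 2CG at Il17c held 310 of the 515 reads, and 366 reads remained with each pair counted once. Sipa1l2 encodes a GTPase-activating protein for Rap. It held 8 listed cytosines and 385 reads, and 2 of them, on opposite strands and 21 bp apart, carried 140 reads each. With this pair counted once, 245 reads remained. Cbfa2t3 encodes a transcriptional corepressor of blood cells and held 364 reads over 12 sites, with no facing 2CG pair. More than 0.5 of the reads at both Il17c and Sipa1l2 thus stood in facing pairs, and none of those at Cbfa2t3 did.

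Irf8, a transcription factor of myeloid cells, held 185 reads over 14 sites, with no site above 37. All 7 of its listed dyads were listed on both strands, and 1 of the 8 CGs in the 300-base promoter had no listed cytosine. Acta1, the skeletal muscle actin, held 192 reads over 11 sites, and 11 of the 12 CGs of its promoter had a listed cytosine. Slc35f3, a solute carrier, had the most CGs of the 6 promoters, 29, and 8 of them (27.6%) were listed. Its 9 upstream sites held 53 reads, or 5.89 per site, and 38 reads with its 2 facing pairs counted once. A short list of CGs can only be located when most of them are listed, so the listed shares of the 6 are not compared.

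The counts also varied over short distances around these starts. Within 2 kb on either side, reads per site were 20.2 at Il17c (140 sites), 20.3 at Sipa1l2 (102 sites), 20.3 at Irf8 (107 sites), 19.3 at Cbfa2t3 (81 sites) and 18.6 at Acta1 (131 sites). Slc35f3 had 12.2 reads per site over 67 sites. At Sipa1l2 a second pair with 111 reads on each site stood 100 and 123 bases after the start. The highest site near Irf8, with 131 reads, was 1716 bases after the start. The 5 wider windows other than that of Slc35f3 therefore differed less from one another than the 250-base windows did. That was largely set in advance, since the starts were chosen by their 250-base values and the wider windows hold more sites.

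**Figure D1:**
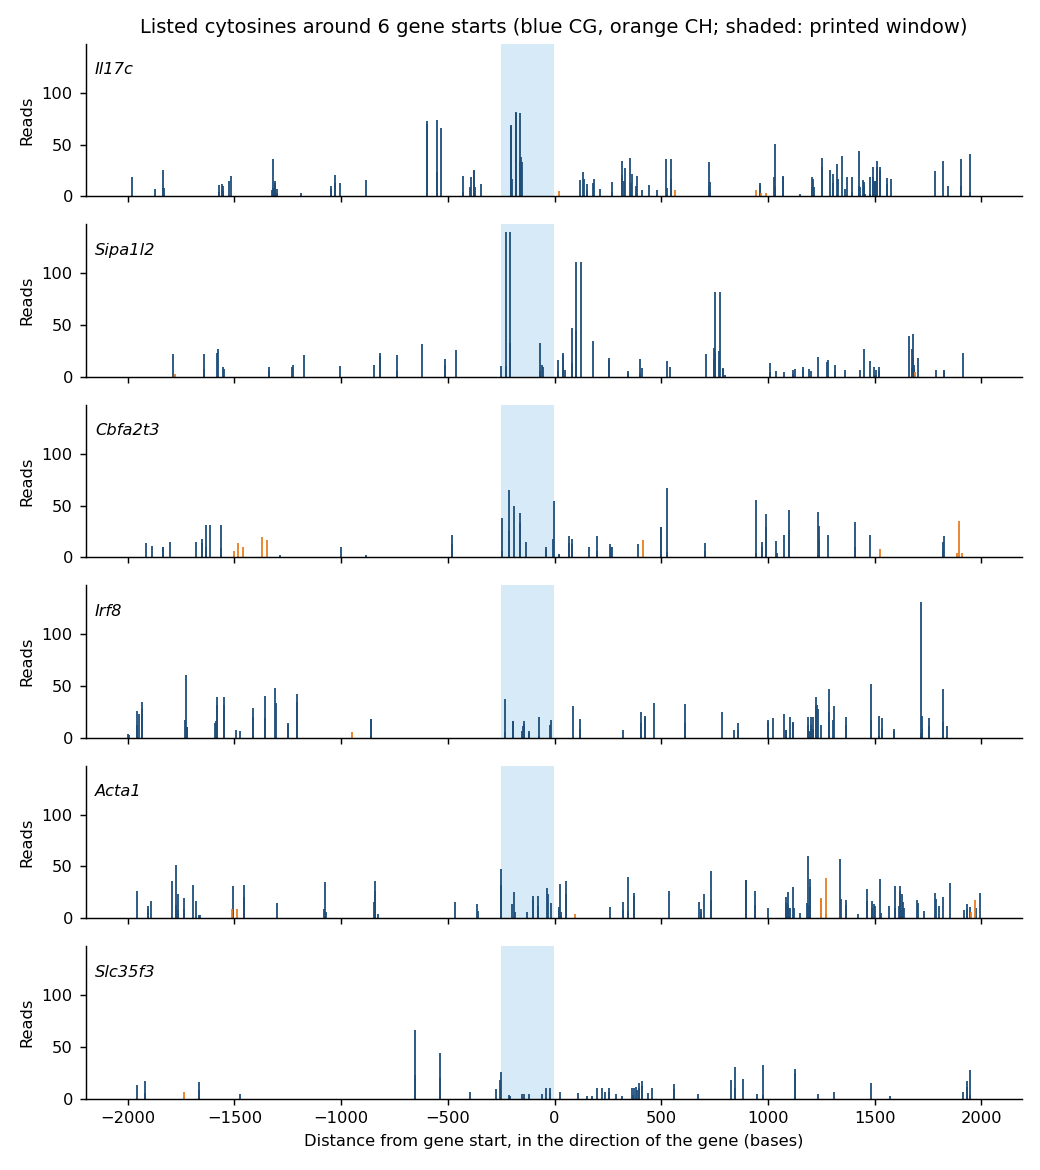
Reads at each listed cytosine (vertical lines, y axis) against its distance from the gene start in bases (x axis, in the direction of the gene) for 6 genes of distal chromosome 8. Blue lines are CG and orange lines CH sites, the shaded band is the 250 bases printed above. The pair of 140 reads at Sipa1l2 and the cluster of up to 81 reads at Il17c stand out in the shaded band, and the band of Slc35f3 stays at or below 10 reads.

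In all, 72 promoters of 65 genes could be located in the region, 19 of them protein-coding genes. Under a stricter limit on chance fits, chosen after the data were seen, 28 were located, and Il17c, Irf8 and Slc35f3 were not among them. A promoter with few listed cytosines cannot be located this way, so CG islands without 5hmC are missing from the set, and nothing is read from its high share of listed CGs. The located promoters held 5 to 45 listed sites in 300 bases (median 10.5), 30 to 910 reads (median 194) and 6 to 58.4 reads per site (median 17.4). CH sites were found in 14 of them. Of 520 dyads in these promoters, 56.9% were listed on both strands, with dyads in overlapping promoters counted once per promoter.

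The protein-coding promoters covered a range of functions. Dpep1, a dipeptidase of the kidney, held 305 reads over 15 sites in 300 bases. Adad2, a testis protein with an adenosine deaminase domain, held 342 over 21. Bco1, the oxygenase that cleaves beta-carotene, held 247 over 14, and Osgin1, an oxidative stress-induced growth inhibitor, held 238 over 13. Taf1c, a subunit of the RNA polymerase I initiation factor, held 213 over 17, and Dynlrb2, a dynein light chain, held 207 over 17. These 6 promoters, picked for their functions, had between 12.2 and 20.3 reads per site. Outside that range stood, among others, Il17c with 47.27 and Slc35f3 with 6 reads per site in 300 bases.

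Low counts were found at Sult5a1, a sulfotransferase, with 87 reads over 8 sites, and Crispld2, a secreted protein with an LCCL domain, with 101 reads over 10 sites. Lower still were Pkd1l2, with 85 reads over 7 sites, and Slc35f3, with 60 over 10. The fewest reads of all, 30 over 5 sites, stood at a promoter of the predicted gene Gm42045. In Crispld2, 8 of 20 CGs (40%) were listed. The highest reads per site, 58.4 over 9 sites, belonged to Gm39285, a predicted gene.

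Along the whole region, distal chromosome 8 carried 239564 reads per Mb, against 97954 per Mb on the rest of the chromosome, a ratio of 2.45. The same ratio of the last 12 Mb to the rest ranged from 0.894 (chromosome 18) to 2.21 (chromosome 15) on the other 18 autosomes, with a median of 1.45 and an SD of 0.423. On chromosome 11 it was 1.82. Most of the chromosome 8 ratio lay in the number of listed sites: 13737 per Mb against 6390 per Mb, a ratio of 2.15. Reads per site were 17.4 against 15.3, a ratio of 1.14. Each of the 3 ratios was the highest of the 19 autosomes. The start on chromosome 8 was chosen by read density, while the other autosomes were cut at a fixed 12 Mb. These ranks are therefore a description. The next highest ratios were 2.06 on chromosome 15 for sites and 1.11 on chromosome 11 for reads per site. Each gap to the next one was smaller than the SD over the other autosomes (0.35 for sites and 0.0697 for reads per site).

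In absolute density the region ranked second to the end of chromosome 11. The last 12 Mb of chromosome 11 held 256179 reads per Mb, 13816 sites per Mb and 18.5 reads per site. The ends of the other 17 autosomes held 45490 (chromosome 3) to 143518 reads per Mb (chromosome 4), with a median of 86923. Distal chromosome 8 thus stood 1.67 times above the highest of those 17 and 0.935 times the end of chromosome 11. The rest of chromosome 8, at 97954, and the rest of chromosome 11, at 140644, were above the rest of every other autosome, whose range was 49165 to 86844.

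**Figure D2:**
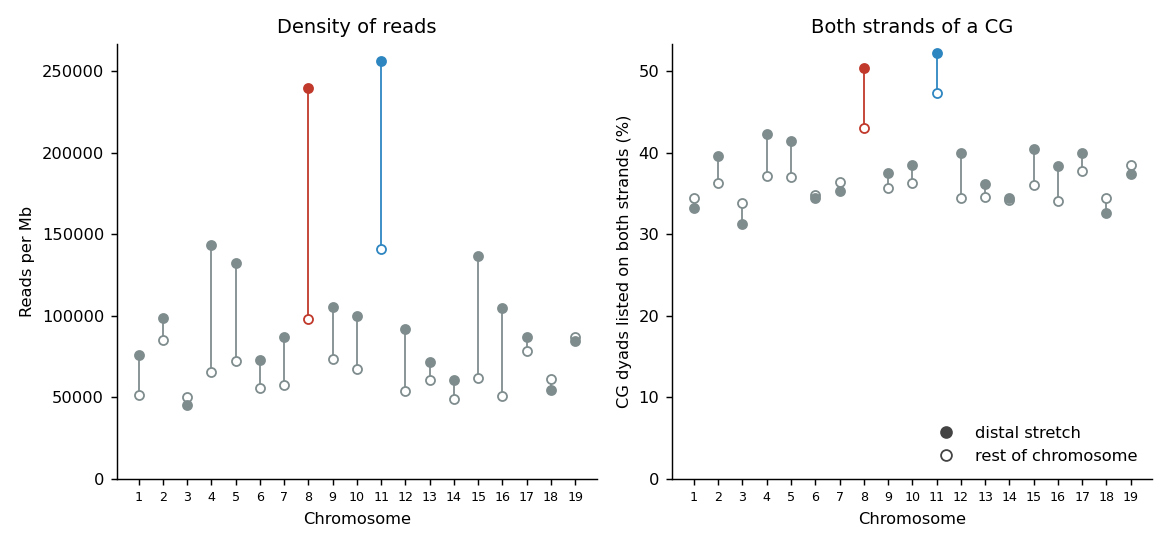
Reads per Mb (left) and the share of CG dyads listed on both strands in percent (right) for each autosome (x axis). Filled points are the distal stretch (from 119 Mb on chromosome 8, the last 12 Mb elsewhere), open points the rest of the chromosome, red chromosome 8 and blue chromosome 11. The filled points of chromosomes 8 and 11 lie above all others in both panels.

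In windows of 100 kb the high density was continuous. A window of 100 kb was called when it held more than 2 times the median autosomal window of 4116 reads, counting windows from the first listed site of each chromosome. Across the autosomes 33.1% of 24161 windows passed, and in distal chromosome 8 it was 111 of 128 (86.7%, interval 79.6% to 92.1%). Since read density chose the stretch, that share is a description. The 111 windows formed 1 unbroken run of 11.1 Mb from the region's start to position 130100000, and the remaining 17 windows, up to the chromosome's end, all fell below the threshold. With the 2 windows just before the start, the run spanned 113 windows, the longest on any autosome. The next was 104 windows on chromosome 4, followed by 71 on chromosome 17, 67 on chromosome 11 and 66 on chromosome 2.

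At 10 kb the picture was finer. Here 35.2% of 241524 autosomal windows passed the same rule and 1060 of 1274 (83.2%) did in distal chromosome 8. No window of 10 kb in the region was empty. The windows that passed formed 69 separate runs in the region. The longest unbroken run at this size, 207 windows from 121860001 to 123930000, was shorter than the 332 windows of chromosome 11. The order of the 2 chromosomes by run length therefore depended on the window size.

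The start of the region was a step rather than a cliff. The 3 windows of 100 kb just outside it held 7813, 9740 and 9494 reads, and the 3 just inside held 13536, 34489 and 19609. The megabase before the start held 73376 reads, but the one before that held 212293, more than 6 of the 13 windows of 1 Mb inside. High density was thus also found on chromosome 8 outside the region.

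**Figure D3:**
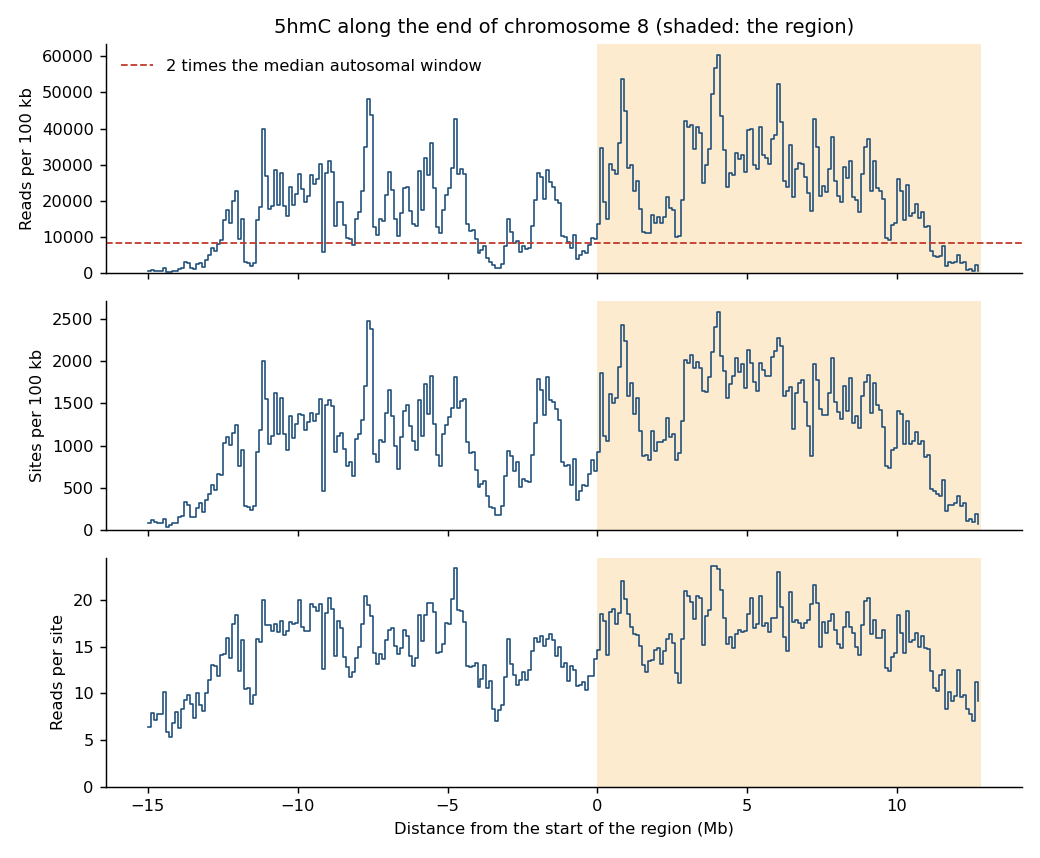
Reads (top), sites (middle) and reads per site (bottom) in windows of 100 kb against the distance from the region's start in Mb, with the region shaded. The dashed line is 2 times the median autosomal window. Reads stay above the line for 11.1 Mb inside the region and below it in the last 17 windows, and they cross it repeatedly before the start.

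Within the region the density peaked in the fourth megabase and fell off at the end. The first megabase held 303167 reads over 16232 sites, and the next 2 held 187945 and 183560. The fourth held the most, 390434 reads over 19462 sites with 20.1 reads per site. The fifth to eighth held 341877, 348819, 316254 and 276967 reads. The ninth to eleventh fell to 247637, 203275 and 183924. The twelfth held 51244 and the last, which is 0.736 Mb long, 16107. Each window up to the eleventh thus held more reads than either of the last 2.

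Reads, sites, reads per site and dyads on both strands all fell at the end, while the CH share of sites was higher there. The run was defined by reads per window, so fewer reads after it were set in advance. Sparse 100 kb windows elsewhere are set beside this below. The 11.1 Mb run carried 269993 reads per Mb, 15305 sites per Mb and 17.6 reads per site, with 51.1% of dyads listed on both strands (interval 50.8% to 51.4%). The 1.64 Mb after it carried 33174 reads per Mb, 3106 sites per Mb and 10.7 reads per site, with 28.6% of dyads on both strands (interval 27.1% to 30.1%). CH sites made up 4.64% of sites in the run (interval 4.54% to 4.74%) and 10.7% after it (interval 9.88% to 11.6%). In 100 kb windows with 100 or more and under 500 sites, the median CH share was 11.05% in the region. It was 12.13% on the rest of chromosome 8 and 6.78% at the 17 other ends, leaving out sites above 168 reads. The median share of dyads on both strands in these windows was 28.07%, 22.35% and 21.13%. The last located promoter, of the predicted gene Gm51558, lay before the end of the run. In GRCm38 gene order it is followed by Nrp1, a receptor for semaphorins and VEGF, and Itgb1, the integrin beta 1 chain, so these genes come after it, though their mm9 extent was not available to measure.

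The densest 100 kb windows came in a few blocks. The highest, 123000001 to 123100000, held 60396 reads over 2587 sites, and its neighbours at 122900001, 122800001 and 123100001 held 56766, 49590 and 43356. This block of 4 windows lay between the located promoters of Crispld2 and the predicted gene Gm39265, an interval in which the GRCm38 order has Zdhhc7, a protein palmitoyltransferase, Cibar2 and Gse1, a coiled-coil protein of corepressor complexes. A second block at 119800001 and 119900001 held 53627 and 44865 reads. It lay between Bco1 and the predicted gene Gm46053, an interval that includes Cmip, Plcg2, a phospholipase of immune cell signalling, Mphosph6, Hsbp1 and Mlycd, the malonyl-CoA decarboxylase.

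Another block at 125000001 and 125100001 held 52322 and 41900 reads. Its interval, between the predicted genes Gm20735 and Gm10612, includes Piezo1, a mechanically gated channel, Cdt1, a replication licensing factor, Aprt, Trappc2l and Cbfa2t3. The Cbfa2t3 start in this interval is not the one printed above, which lies after Gm10612. The window at 126200001, with 42575 reads, held 4 located promoters of predicted or Riken-named genes. The window at 121900001, with 42111 reads, held the promoter of Osgin1. These 10 windows had 1970 to 2587 sites and 19.2 to 23.6 reads per site. Which of the genes in each interval a window overlaps was not determined.

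The 10 kb windows narrowed the first block. Its highest window, 123090001 to 123100000, held 13928 reads over 486 sites, the most of the region and the 18th highest of all autosomal windows of that size. The windows at 123070001, 123080001 and 123100001 held 9895, 9033 and 9202, so 4 adjoining windows took the first 4 places. The next were 125000001 with 9028 and 125160001 with 8399, both in the block that starts at 125000001. At 124080001 and 124120001, in the interval with Map1lc3b, an autophagy protein, and Jph3, a junctophilin, 8170 and 7264 reads were counted. At 125410001, in the interval with Ankrd11, a chromatin regulator, Spg7 and Rpl13, the count was 7493, and at 124440001, in the interval with Car5a, a mitochondrial carbonic anhydrase, it was 7378.

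The 5 lowest 100 kb windows, leaving out the chromosome's last one, all lay after the run. They held 618, 885, 1024, 1874 and 2144 reads over 88 to 224 sites. Across all 128 windows the median was 23846 reads, with 14869 and 32132 at the lower and upper quartile. On the rest of chromosome 8 the median window held 5994 reads, at the end of chromosome 11 27387, and at the ends of the other 17 autosomes 7286. The coefficient of variation between windows was 0.546 in the region and 1.01 on the rest of chromosome 8.

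Windows with more sites also had more reads per site. Over the 128 windows Spearman's rho between the number of sites and reads per site was 0.849, a description only, since both come from the same reads. Windows were therefore compared at like numbers of sites, leaving out sites above 168 reads (the top 0.1% of sites). With at least 1000 and under 1500 sites, the median was 15.4 reads per site in the region (37 windows), 15.9 on the rest of chromosome 8 (237 windows), 15.6 at the end of chromosome 11 and 13.8 at the ends of the other 17 autosomes. With at least 1500 and under 2000 it was 17.3 (45 windows), 17.8 (75 windows), 19 and 15.2. In these 2 groups of windows, the region's reads per site were thus just below those of the rest of chromosome 8 and above those of the 17 other ends.

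In the sparsest windows, with 100 or more and under 500 sites, the medians were closer. They were 10 in the region, 9.73 on the rest of chromosome 8, 10.2 at the end of chromosome 11 and 9.43 at the 17 other ends. With at least 500 and under 1000 sites they were, in the same order, 13.11, 13.11, 12.82 and 11.75. In the densest, with 2000 or more sites, the region had 19.6 (15 windows, quartiles 18.3 and 22) and the rest of chromosome 8 had 18.6 (6 windows). The end of chromosome 11 was higher, at 20.8 (21 windows), and the 17 other ends had 15.9 (7 windows, quartiles 15.6 and 16.2).

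**Figure D4:**
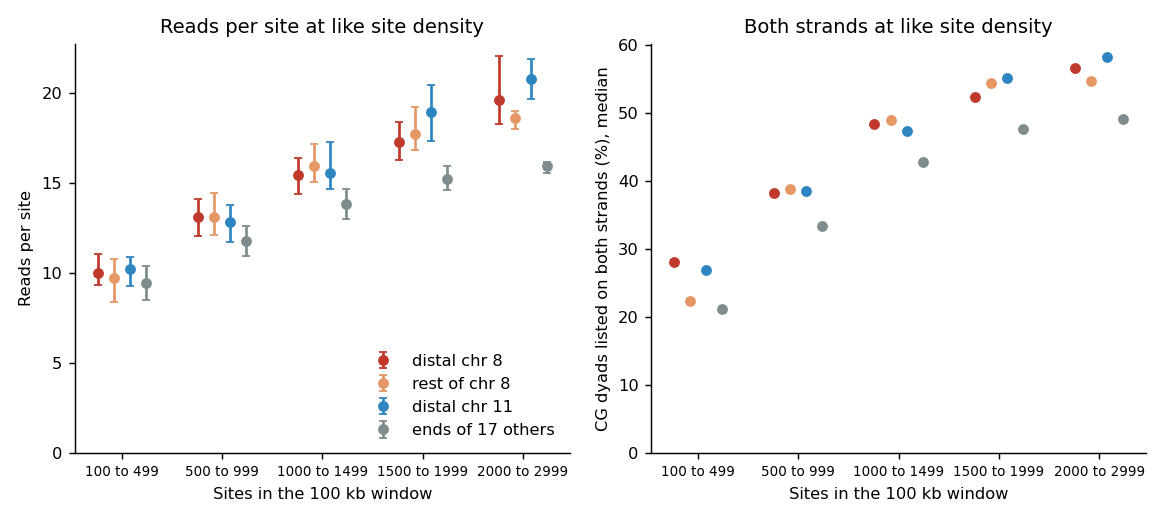
Reads per site (left, median with quartile bars) and the median share of CG dyads listed on both strands in percent (right), for windows of 100 kb grouped by their number of listed sites (x axis). Red is distal chromosome 8, orange the rest of it, blue the end of chromosome 11 and grey the ends of the 17 other autosomes. In the 3 middle groups red and orange lie close together and above grey.

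CG sites made up 95.2% of the region's sites (interval 95.1% to 95.3%), against 91% on the rest of chromosome 8 and 94.6% at the end of chromosome 11. Among the ends of the 17 other autosomes the share ran from 92.2% to 96.5%, so the region's value was inside that range. CG sites held a mean of 17.9 reads and a median of 13, against 16 and 11 on the rest of chromosome 8. CG sites with at least 51 reads were 4.33% of all CG sites in the region, 3.4% on the rest of the chromosome, 5.28% at the end of chromosome 11 and 1.98% over all autosomes. Those with 2 to 5 reads were 15.1% in the region and 23.1% over all autosomes.

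Of the region's 110754 listed dyads, 50.4% were listed on both strands (interval 50.1% to 50.7%). The rest of chromosome 8 had 43% and the end of chromosome 11 52.3%, and the other 17 ends had 31.3% (chromosome 3) to 42.3% (chromosome 4). The share rose with the number of sites per window, in the region from a median of 28.1% in the sparsest group to 56.7% in the densest. In the group from 1500 to under 2000 sites the median was 52.4% in the region, 54.4% on the rest of chromosome 8 and 47.6% at the 17 other ends. The counts of the 2 strands of a dyad went together only weakly, with a Spearman's rho of 0.254, a description over dyads of the same libraries, and 23.9% of dyads listed on both strands differed more than 3-fold between them.

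Sites lay close to each other. In the region 95.2% of sites had another within 100 bp, against 89.5% on the rest of chromosome 8. The median gap between neighbouring sites was 21 bp against 28 bp. At the end of chromosome 11 the values were alike, 95.3% and 20 bp. The 17 other ends had 82.8% to 93.7% and 23 to 47 bp. Gaps over 5 kb numbered 3.14 per Mb in the region and 10.3 per Mb on the rest of chromosome 8. The longest gap was 14175 bp, from 126061794 to 126075969. Gaps of 10398 and 9657 bp followed it before position 126099465, and the remaining 2 of the 5 longest, 9687 and 9415 bp, lay after the run.

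The meaning of the deposited class codes was not stated, but they differed in how often a listed site faced them. Of plus-strand sites coded 2CG, 84.6% had a minus-strand listed site 21 to 25 bp downstream, and 86.4% of those pairs had equal counts. For the code 2CH the share with such a partner was 83.99%, and for 1CG and CGCH it was 1.27% and 0.976%. Sites coded 2CG were 7.47% of the region's sites and had a mean of 34.7 reads. Without sites above 168 reads that mean was 30.6, against 28.4 on the rest of chromosome 8, 32.4 at the end of chromosome 11 and 21.4 to 24.5 at the 17 other ends.

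Among the 5 sites with the most reads were 2 pairs on opposite strands at this spacing, although neither pair was coded 2CG on both sides or had exactly equal counts. The highest, at 128302993 on the plus strand, held 918 reads, and the opposite cytosine of its dyad held 32. The next 2, at 119409775 and 119409797, held 599 and 591 reads on opposite strands 22 bp apart, with the codes 1CG and 2CG, and neither dyad partner was listed. The last 2, at 122494841 and 122494862, held 553 and 552 reads 21 bp apart, both with the code CGCH, and the dyad partner of each held 17. In these 5 dyads the count thus lay almost wholly on 1 strand. The first of these pairs lay in the interval that includes Cenpn, a centromere protein, Atmin and Gcsh, and the other pair in that with Klhl36 and Usp10, a deubiquitinase.

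CH sites were 8428 in number, 52.7% CA, 33.4% CT and 13.8% CC. At 662 per Mb they were 1.15 times as dense as on the rest of chromosome 8, a ratio with rank 10 of the 19 autosomes, while the region's ratio for all sites had rank 1. They held a mean of 7.41 reads and a median of 5, against 8.57 and 6 on the rest of chromosome 8. Within 100 bp of a CG site lay 79.8% of them, against 63.3% on the rest of the chromosome and 77.7% at the end of chromosome 11. The rest of chromosome 8 was itself dense in CH sites, at 573 per Mb against at most 358 on the rest of the 17 other autosomes. Set against the ends of those 17, the region's CH density had rank 3 of 19 and was 1.9 times their median of 348 per Mb, close to the 2.05 times found for all sites.

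CH sites were not evenly spread. In the first 5 Mb of the region there were 521 per Mb with a mean of 5.12 reads, and in the following 6.1 Mb of the run there were 865 per Mb with a mean of 8.69. That division was chosen after the values were seen. The means of CG sites in the same stretches were 18.3 and 18 reads. CH sites with at least 21 reads numbered 26 of 2604 (0.998%) in the first stretch and 448 of 5279 (8.49%) in the second. The CH share rose from 3.38% of sites (interval 3.13% to 3.65%) in the fifth megabase to 6.86% (6.51% to 7.23%) in the sixth, with the same number of listed sites, 19215, in both. CA made up 52.2% and 52.8% of the CH sites in the 2 stretches.

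**Figure D5:**
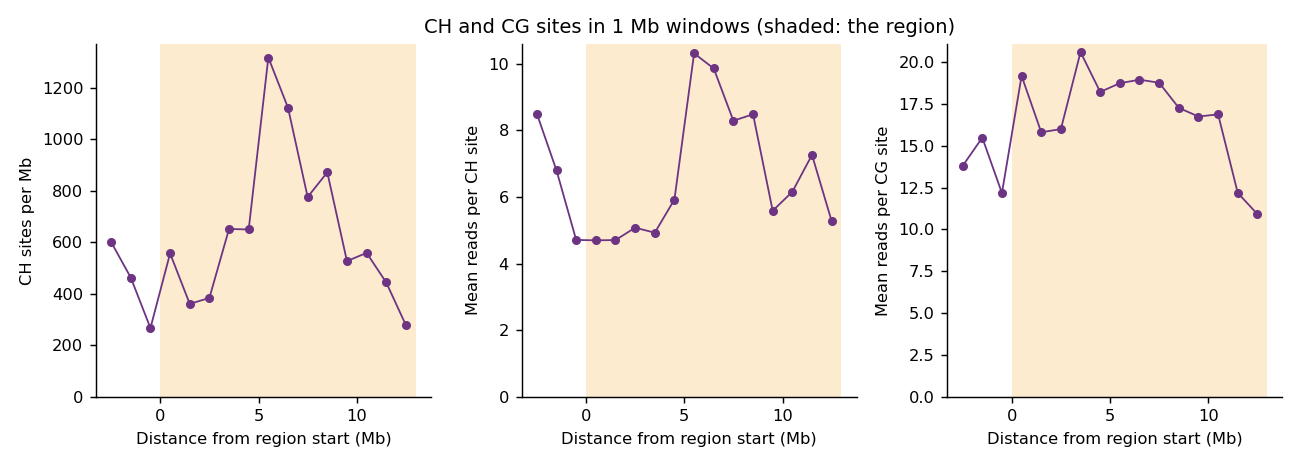
CH sites per Mb (left), mean reads per CH site (middle) and mean reads per CG site (right) in windows of 1 Mb against the distance from the region's start in Mb, with the region shaded. CH density peaks at 1318 sites per Mb in the sixth megabase, where the mean per CH site reaches 10.3, while the mean per CG site there, 18.7, is below its peak of 20.6 in the fourth.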

How the data were processed

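The authors' deposited table lists 1 whole-number read count per cytosine, raw and pooled over both libraries, with position, strand, dinucleotide and class code. The submitters' processing notes name CASAVA 1.8.2, Bowtie and the build mm9. Per the labels' protocols, 100 ng of DNA was used and 16 PCR cycles were run. How reads were assigned to cytosines, the meaning of the class codes and the minimum for listing (the lowest count is 2) were not stated in the labels or the table. An unlisted cytosine is therefore not a measured 0, and a pile of PCR copies could raise a count.

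Sites were summed in windows and stretches with Python 3.11.15, pandas 2.3.3 and numpy 2.4.6, and shares were given intervals with scipy 1.17.1. Densities on other chromosomes use the span from the first listed site. The depth is 176006227 reads over 13025343 sites. The region, lists and comparisons were chosen with earlier results of these data known. Windows and sites were named by rule: all windows of 1 Mb, the 10 highest and 5 lowest of 100 kb, the 10 highest of 10 kb, the 5 highest sites, the 5 longest gaps and the windows beside the start. The counts over gene bodies that the design foresaw were not made, since no mm9 genome or annotation was used here.

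Promoters were located after the data were seen. RefSeq (GRCm38.p6) gives 300 bases per gene start, 250 before and 50 after. Each was slid along the listed CG dyads and kept at a position where every listed dyad fell on one of its CGs, at least 5 did, no other position did as well, and fewer than 0.01 such fits were expected from the CG density. A second round, needing 3 dyads, searched only between neighbours in GRCm38 gene order. Of 948 chromosome 8 promoters with enough CGs, 43 were placed, and of 209 in the second round, 29. None of 694 chromosome 19 promoters was placed in the region, nor any of 209 in the second round. All 846 listed sites in the placed promoters fit the letters, with sites in overlapping promoters counted once per promoter. The placing required listed CG dyads to fall on CGs, so the fit of the CG sites was largely set in advance. Only the 30 CH sites among them had not been used in the placing. No GRCm38 coordinate was used. The summary values were recomputed under alternative minimum counts, site sets, read weights, starts and window sizes.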

Additional observations from a re-analysis of the deposited data

How the results depend on the processing

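Of 55 alternatives over 8 results, 46 left the value within its spread, 9 moved it and 0 reversed it. Some of the 46 could not have come out otherwise. A weight of 0.5 for the reads of 2CG and 2CH sites cannot change the ratio of sites, the CG share or the dyads on both strands. Keeping CG sites only cannot change the dyads on both strands. That spread was the SD over the other 18 autosomes for the 3 ratios, the interval for shares and 1.5-fold for counts and window medians. The ratio of reads per Mb to the rest of chromosome 8 ranged from 2.32 (start 1 Mb earlier) to 2.57 (minimum of 10 reads). Counting each site once turned it into the ratio of sites, 2.15. With the ends of the other autosomes in place of the rest of chromosome 8 it was 2.68. With a minimum of 5 reads the CG share was 96.89% and dyads on both strands 46.74%. With a minimum of 10 reads these were 98.48% and 36.97%, and the ratio of reads per site was 1.045. Starting the region 1 Mb later gave a CG share of 95.04% and 50.01% of dyads on both strands, and starting it 1 Mb earlier gave 49.51%. A higher minimum by construction leaves fewer cytosines listed. Cause beyond that was not tested. With fewer than 0.0001 expected fits, a limit chosen after seeing the data, 28 promoters were placed in place of 72. Counting facing pairs once, also chosen after seeing the data, left 366 reads at Il17c and 245 at Sipa1l2. No paired analysis was possible because the deposited counts pool both libraries, and for the same reason no library could be left out.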

Other observations

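The 6 windows of 100 kb with over 10% CH sites inside the 11.1 Mb run are named here after their values were seen. Such a share was common elsewhere: 25.9% of autosomal windows with any listed site passed it, 47.2% of those on the rest of chromosome 8 and 13.3% in the region. The window from 127200001 to 127300000 had 274 CH sites among 1708 (16%), with a mean of 12.3 reads. Its neighbour at 127100001 had 190 among 1319 (14.4%). The first of these windows contains the located promoter of the predicted gene Gm46058, whose 300 bases held 4 CH sites, the highest of them with 33 reads at a CA. The windows at 124300001, 124400001 and 124600001 had 13.2%, 10.5% and 10.4% CH, and the last window of the run, at 130000001, had 11.7%. None of the 50 windows of the first 5 Mb passed 10% CH, 6 of the 61 in the rest of the run did, and 11 of the 17 windows after it did.

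One stretch inside the run was nearly empty. From 126070001 to 126120000, 50 kb, only 13 cytosines with 96 reads were listed, and its 5 windows of 10 kb are the 5 lowest of the run. It lies between the located promoters of Dpep1 and the predicted gene Gm19600, an interval that in GRCm38 order includes Mc1r, the melanocortin receptor of pigment cells, Tubb3, a neuronal tubulin, Def8, Afg3l1 and Gas8. Whether reads can be placed uniquely in this stretch was not tested. When all autosomal windows of 100 kb were ranked by reads, the first 100 divided as follows: 18 lay in distal chromosome 8, 14 on the rest of it, 58 on chromosome 11 and 10 elsewhere. Of all 24161 such windows, 128 lie in distal chromosome 8 and 1160 on the rest of it. Read density chose the region, so its place in this ranking is a description.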
